A study of Mus musculus with 7 samples.

Results

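The family 2 cytochrome P450 genes (Cyp2 genes) were examined in whole liver of mice that lack Rbpj in the liver. Members were taken as all non-control probes of the array whose gene name begins with Cyp2, a subfamily letter and a number, which gave 60 probes for 45 genes out of 35715 gene names on the array. These genes fall into 13 subfamilies by letter, with 3 Cyp2a, 5 Cyp2b, 13 Cyp2c, 10 Cyp2d and 6 Cyp2j genes and 1 gene each for the letters e, f, g, r, s, t, u and w. The Rbpj +/+ group consisted of 4 Rbpj flox/flox mice without the AlfpCre transgene, and the Rbpj -/- group of 3 Rbpj flox/flox mice with AlfpCre. All 7 mice carried the floxed allele on a C57BL/6J background, were 4 weeks old and received no treatment, and each gave 1 array. AlfpCre drives Cre from albumin and alpha-fetoprotein regulatory sequences from embryonic life on, so both hepatocytes and biliary cells can lose Rbpj, the DNA-binding partner of Notch receptors, and the knockout mice are cholestatic. The floxed control group carried no Cre, so effects of Cre and of Rbpj loss cannot be told apart in this design. The question asked here is how the transcripts of a large hepatic enzyme family differ between the genotypes.

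Family 2 enzymes sit in the endoplasmic reticulum, receive electrons from NADPH P450 reductase (Por) and cytochrome b5, and oxidise drugs, toxicants, steroids, fatty acids, bile acids and vitamins. Most of them are made by hepatocytes, several of them mainly around the central vein, and others are made in kidney, gut, skin or olfactory mucosa. Their genes stand in tandem clusters, and the nuclear receptors Nr1i3 (CAR) and Nr1i2 (PXR), the factors Hnf4a and Cebpa, and the sex-dependent pattern of growth hormone are known regulators.

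Values are given as relative log2 signal, which is the log2 intensity of a probe minus the 75th percentile of its array, so 0 is the level of the probe at that percentile. Single values are listed from Rbpj +/+_1155 over Rbpj +/+_1156 and Rbpj +/+_1024 to Rbpj +/+_991 for the wild types, and from Rbpj -/-_N3 over Rbpj -/-_N5 to Rbpj -/-_2866 for the knockouts. Signals of different probes are not comparable with each other, and every statement is about 1 probe across animals. A probe counted as above background when the scanner marks called it positive, significant and well above background, and a test was made when this held in every animal of 1 genotype or of both. Probes above background made up 61.8% in Rbpj +/+_1156 and 64.9% in Rbpj -/-_N3, and between 41.1% and 47.7% in the other 5. The 75th percentile of the intensities ranged from 57.5 to 103 in Rbpj +/+ and from 118 to 143 in Rbpj -/- animals. All arrays lay on 1 slide, with the wild types in 1 row and the knockouts in the other, so slide row and genotype cannot be told apart. The signal of Rbpj itself was 0.97, 0.29, 0.33 and 0.81 in Rbpj +/+ and -0.35, -0.78 and -0.48 in Rbpj -/- livers for the brighter of its 2 probes, with no overlap (log2 fold change -1.13, SE 0.24, limma adjusted p = 0.0115). Whether that probe lies in the deleted part is not given in the sources used here. Hepatocyte markers were detected on all 7 arrays for 13 of 13 genes, so the defining markers of the labelled tissue were present. The labels give no sex, and several Cyp2 genes are sex-biased in adult mouse liver. The Y-linked genes Ddx3y (2.11 to 2.82) and Eif2s3y (2.20 to 2.84) were above background in all 7 animals. For Xist, 1 probe was above background in 1 of 4 wild types and 0 of 3 knockouts, and the other in no animal.

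The level of a single Cyp2 transcript has to be read through short probes, and members of a tandem cluster can share much of their sequence. The brighter Cyp2c67 probe and the Cyp2c68 probe overlap by 59 bases with 4 differences. The probe letters of 30 of these bases are shown because both genes fell most in the Cyp2c cluster. Capitals mark the bases that differ.
Cyp2c67: acAcagtcccagAaattccatctatattcc
Cyp2c68: acCcagtcccagGaattccatctatattcc
The brighter Cyp2a4 probe is likewise close to a probe without a gene name, with 4 differences in 56 bases, all of them within the 30 bases shown.
Cyp2a4: acTAtgagtttcttgtcccGttgaTcctgg
Unnamed probe: acACtgagtttcttgtcccAttgaGcctgg
The array places the Cyp2a4 probe at chr7:27099880-27099939 and the unnamed probe at chr7:27737339-27737398, both on the plus strand of mm9, the build that the coordinates of the array match. In either pair each probe may also have caught transcripts of the other, which was not tested. The values of these 3 genes are therefore those of a pair of alike sequences.

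The region before the transcript start used by the table is shown for the members with the largest changes in each direction, namely Cyp2b9 and Cyp2b13, which rose, and Cyp2c67 and Cyp2c68, which fell. The RefSeq promoter table (GRCm38.p6) held a window for 36 of the 45 genes, and the 250 bases before the start it uses were searched on both strands. That start can lie downstream of the outer end of the RefSeq gene, so 15 of the 36 windows reach into their gene as RefSeq bounds it, by 59 bases for Cyp2b9, 37 for Cyp2c67 and more than these for Cyp2b13, while that of Cyp2c68 does not. In the Cyp2b pair, capitals mark TTGCNNAA, a C/EBP type motif.
Cyp2b9 (chr7:26173159-26173408, plus strand): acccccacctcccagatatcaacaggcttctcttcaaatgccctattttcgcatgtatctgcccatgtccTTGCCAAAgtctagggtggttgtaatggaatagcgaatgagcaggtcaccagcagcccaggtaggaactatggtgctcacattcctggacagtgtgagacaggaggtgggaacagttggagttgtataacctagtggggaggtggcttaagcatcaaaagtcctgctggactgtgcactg
Cyp2b13 (chr7:26061245-26061494, plus strand): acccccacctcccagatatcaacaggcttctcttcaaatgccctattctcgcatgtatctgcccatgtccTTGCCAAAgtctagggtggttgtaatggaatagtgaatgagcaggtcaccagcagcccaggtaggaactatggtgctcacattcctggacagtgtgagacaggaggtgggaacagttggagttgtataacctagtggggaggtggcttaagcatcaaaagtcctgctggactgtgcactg
These windows are identical at 248 of 250 positions. In the Cyp2c pair, capitals mark CAAAGTCCA, an HNF4 type motif.
Cyp2c67 (chr19:39649043-39649292, minus strand): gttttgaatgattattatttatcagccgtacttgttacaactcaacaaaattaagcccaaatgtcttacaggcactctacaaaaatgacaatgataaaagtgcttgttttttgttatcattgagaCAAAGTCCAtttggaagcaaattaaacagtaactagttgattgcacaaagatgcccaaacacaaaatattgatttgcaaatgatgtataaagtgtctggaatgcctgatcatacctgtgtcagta
Cyp2c68 (chr19:39741102-39741351, minus strand): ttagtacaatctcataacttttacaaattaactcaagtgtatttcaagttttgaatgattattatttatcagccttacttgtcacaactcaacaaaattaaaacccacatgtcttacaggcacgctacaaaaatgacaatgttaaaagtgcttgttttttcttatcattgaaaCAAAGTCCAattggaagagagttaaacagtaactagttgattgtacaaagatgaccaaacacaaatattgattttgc
The Cyp2c windows share 188 bases over 298 aligned columns (63.1%). TTGCNNAA occurred in 10 of 36 members (27.8%) and in 9.55% of the 27025 promoters of the table, including all 3 genes that rose and 3 of the 17 lower genes with a window. Cyp2c67 is 1 of these, and Cyp2b19 and Cyp2b23, which were not detected, have it too. CAAAGTCCA occurred in 4 members (11.1%), namely Cyp2c65, Cyp2c67, Cyp2c68 and Cyp2c70, and in 0.381% of all promoters. AGGTCA, a nuclear receptor half-site, occurred in 10 members (27.8%) against 13.8% of all promoters, TGTTTAC (FOXA type) in 3 (8.33%) against 3.09%, and TTCNNNGAA (STAT5 type) in 1 (2.78%) against 7.18%. In the windows shown, where capitals mark the motif named for that pair only, no base belonged to matches of more than 1 of these motifs. The tandem copies share ancestry, so these windows are not independent, and a match is a description of letters only.

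Most Cyp2 genes tested were lower in Rbpj -/- liver, while the 3 tested Cyp2b genes were higher, 2 of them having passed the filter only through the knockouts. The call of Cyp2b10, which was above background on all 7 arrays, was lost in 11 of 18 alternative settings. Of the 45 genes, 39 were tested, and 23 of these fell (59.0%) and 3 rose (7.69%) with a threshold of 0.1 on the adjusted p, against 19.6% lower and 14.6% higher among the 18771 genes tested on the array. The median log2 fold change was -1.09 in the tested Cyp2 genes and -0.13 in all tested genes. In 22 genes every Rbpj -/- animal was below every Rbpj +/+ animal, and in 3 genes every Rbpj -/- animal was above. Among all tested genes such a separation was found for 21.1% downwards and 15.4% upwards. Without the 2 arrays that had the most probes above background, 25 Cyp2 genes were lower and 4 higher. The higher genes were then Cyp2b9, Cyp2b13, Cyp2a4 (log2 fold change 1.12, limma adjusted p = 0.053) and Cyp2c55 (1.47, adjusted p = 0.0647). Cyp2b10 was not called in that fit (adjusted p = 0.156), so the set of higher genes changed. Because a gene could pass the filter through the genotype in which it was high, the 34 genes above background on all 7 arrays were also counted. Of these, 22 were lower and 1 (Cyp2b10) was higher in the same fit, with a median of -1.18. The shares called among all genes above background on all 7 arrays were not taken, so this count has no matching background. Hepatocyte markers had a smaller median fall (-0.66), and 8 of 13 (61.5%) were lower in the limma fit. Cps1 (0.94), Tat (0.52) and Fga (0.10) had positive log2 fold changes and were not called. The median of the markers was not taken under the other normalizations. In bulk liver, fewer hepatocytes and less RNA per hepatocyte cannot be told apart. The 75th percentile to which arrays were scaled also differed, with 57.5 to 103 in Rbpj +/+ and 118 to 143 in Rbpj -/- animals. The part of this scaling in the fall of bright probes was not tested.

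**Figure D1:**
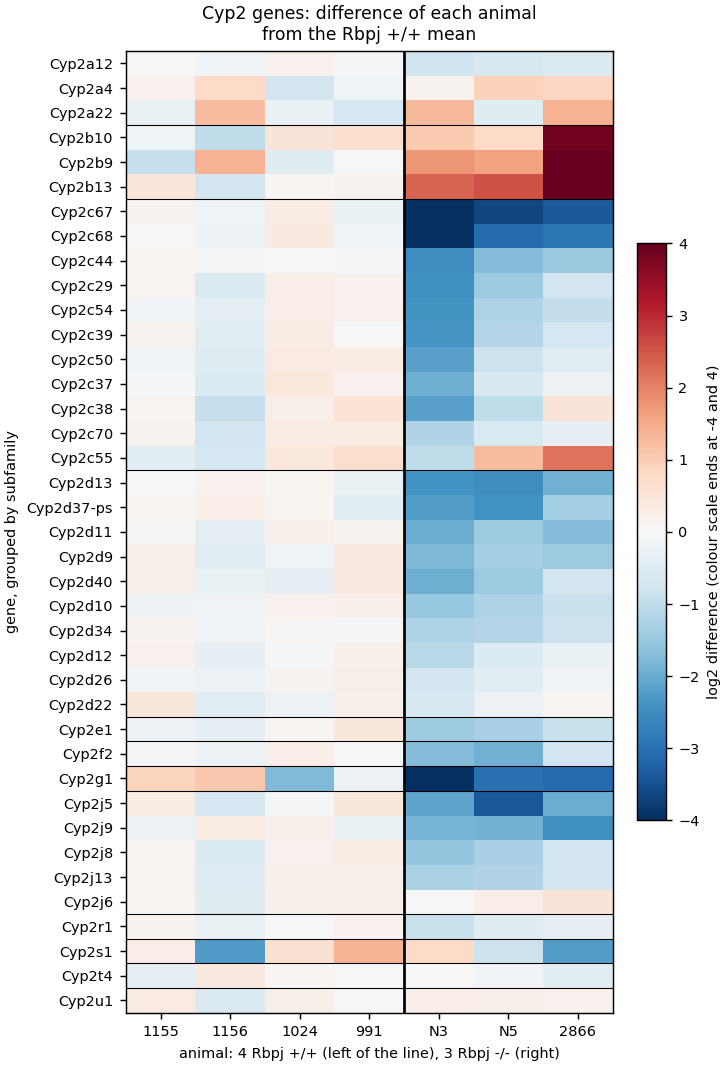
Difference of each animal (columns) from the Rbpj +/+ mean, on the log2 scale, for the 39 tested Cyp2 genes (rows, grouped by subfamily). The right-hand columns (Rbpj -/-_N3, Rbpj -/-_N5, Rbpj -/-_2866) are blue for most genes and red for the 3 Cyp2b genes, and Rbpj -/-_2866 has the darkest red there.

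**Figure D2:**
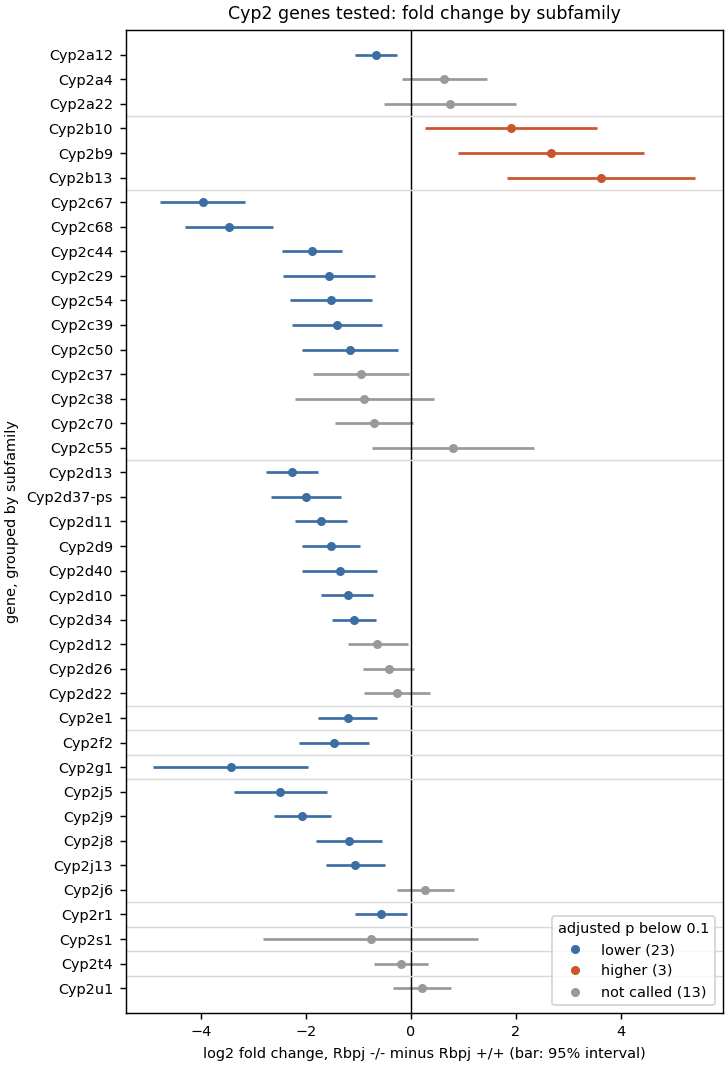
Log2 fold change of each tested Cyp2 gene (Rbpj -/- minus Rbpj +/+, horizontal axis) with its 95% interval, by subfamily. Of the 39 genes, 23 are lower (blue), 3 are higher (red) and 13 were not called (grey).

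Members of the Cyp2c subfamily oxidise drugs and make epoxides and hydroxy acids from arachidonic and linoleic acid. Of the 11 Cyp2c genes tested, 7 fell (63.6%), against 19.6% lower among all genes tested on the array. The median over these 11 was -1.41 on the log2 scale, against -0.13 over the whole tested array. Cyp2c67 showed the largest fall among the tested genes of the family. Its relative log2 signal was 9.05, 8.75, 9.20 and 8.64 in Rbpj +/+ and 4.01, 5.26 and 5.55 in Rbpj -/- animals. All knockout values lay more than 3 log2 units below the lowest wild type, which makes 15.7-fold less signal (log2 fold change -3.97, SE 0.36, adjusted p = 0.000442). The dimmer Cyp2c67 probe read 7.01 to 7.46 in Rbpj +/+ and 4.38, 5.34 and 5.51 in Rbpj -/- animals, again without overlap but with a log2 fold change of -2.18 (SE 0.29, adjusted p = 0.00204). The size of the fall thus depended on the probe, while its direction did not. Cyp2c68, its neighbour on chromosome 19, read 8.41 to 8.97 in Rbpj +/+ and 4.17, 5.54 and 5.72 in Rbpj -/- animals (log2 fold change -3.47, SE 0.37, adjusted p = 0.000839).

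Cyp2c44, which RefSeq now lists as Cyp2c23 and which makes epoxides of arachidonic acid, read 7.32, 7.12, 7.23 and 7.12 in Rbpj +/+ and 4.72, 5.48 and 5.72 in Rbpj -/- livers. The wild types were tightly grouped (7.20 ± 0.10, SD, n = 4), and the knockouts (5.31 ± 0.52, SD, n = 3) were 3.71-fold lower (log2 fold change -1.89, SE 0.25, adjusted p = 0.00212). Cyp2c29, a gene that CAR ligands induce, read 7.18, 6.49, 7.35 and 7.25 in Rbpj +/+ and 4.61, 5.63 and 6.29 in Rbpj -/- livers. It was lower in every knockout, with Rbpj -/-_2866 close to the lowest wild type (log2 fold change -1.56, SE 0.39, adjusted p = 0.0224). Cyp2c54, expressed around the central vein, read 7.58 to 8.2 in Rbpj +/+ and 5.55, 6.69 and 6.97 in Rbpj -/- livers (log2 fold change -1.53, SE 0.34, adjusted p = 0.0151). Its other probes gave -1.55 (adjusted p = 0.0307) and -1.0, and the last missed the threshold (adjusted p = 0.124). Cyp2c39, known for the oxidation of retinoic acid, fell by 1.41 on the log2 scale (SE 0.38, adjusted p = 0.0293). The array places its probe at chr19:39465478-39465537, only 3 bases from the Cyp2c38 probe at chr19:39465415-39465474 and on the same minus strand of mm9. RefSeq has Cyp2c38 on the minus strand but Cyp2c39 on the plus strand, so the name and the position of the probe disagree, and its gene is uncertain. Cyp2c50 fell by 1.17 (SE 0.40, adjusted p = 0.0666), but the groups overlapped (7.80 to 8.60 against 6.10, 7.43 and 7.82), and the log2 fold change was -0.66 with an adjusted p of 0.173 without Rbpj -/-_N3.

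The other 4 Cyp2c genes were not called. Cyp2c37, a linoleic and arachidonic acid hydroxylase, read 7.10, 6.61, 7.59 and 7.33 in Rbpj +/+ and 5.20, 6.52 and 6.91 in Rbpj -/- animals (log2 fold change -0.95, SE 0.41, adjusted p = 0.122). Its dimmer probe passed the threshold with -1.37 (adjusted p = 0.0309). Cyp2c38 had a log2 fold change of -0.89 (95% interval -2.22 to 0.43). Rbpj -/-_2866 alone read 6.59 there, within the wild-type range of 5.17 to 6.64, whereas Rbpj -/-_N3 read 3.91. Cyp2c70, the enzyme that turns chenodeoxycholic acid into muricholic acids in rodents, read 8.54, 7.62, 8.70 and 8.70 in Rbpj +/+ and 7.19, 7.78 and 8.07 in Rbpj -/- animals. The overlap came from Rbpj +/+_1156, the lowest wild type (log2 fold change -0.71, SE 0.33, adjusted p = 0.144). Cyp2c55, inducible by CAR and PXR ligands, read 0.55, 0.26, 1.40 and 1.66 in Rbpj +/+ and -0.05, 2.22 and 3.14 in Rbpj -/- animals. The knockouts thus lay on both sides of the wild types, and the log2 fold change of 0.80 had an interval from -0.75 to 2.35. Cyp2c65 and Cyp2c66, known from the gut, were above background on 1 array each and were not tested. The array places the Cyp2c66 probe 16 bases from the Cyp2c65 probe, so its gene is uncertain too.

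By the brightest probe of each gene, the 3 rises of the family were those of the 3 tested Cyp2b genes. Cyp2b9 and Cyp2b13 were tested because all knockouts were above background, so the filter favoured a rise, and their sizes are uncertain. Cyp2b10 is the classical CAR target of mouse liver, and Cyp2b9 and Cyp2b13 are female-predominant genes of adult liver. Cyp2b13 read -3.28, -4.51, -3.68 and -3.62 in Rbpj +/+ and -1.45, -1.22 and 2.21 in Rbpj -/- animals, and 1 of 4 wild-type and 3 of 3 knockout arrays were above background. Each knockout was above each wild type, and Rbpj -/-_2866 stood far above the other knockouts (log2 fold change 3.62, SE 0.79, adjusted p = 0.0139). Cyp2b9 read -4.07, -1.74, -3.63 and -3.12 in Rbpj +/+ and -1.38, -1.54 and 1.49 in Rbpj -/- animals, also with 1 of 4 and 3 of 3 arrays above background. The gap between the highest wild type, Rbpj +/+_1156, and the lowest knockout was small (log2 fold change 2.66, SE 0.78, adjusted p = 0.0399). Cyp2b10, above background on all 7 arrays, read 1.19, 0.33, 1.87 and 1.99 in Rbpj +/+ and 2.41, 2.11 and 5.21 in Rbpj -/- animals. Rbpj -/-_N3 and Rbpj -/-_N5 were barely above the wild types, and Rbpj -/-_2866 was far above (log2 fold change 1.90, SE 0.72, adjusted p = 0.0881).

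The call of Cyp2b10 was lost in 11 of 18 alternative settings, among them 5 of the 7 fits that left out 1 animal. It was also lost with quantile normalization (adjusted p = 0.112), with limma-trend (0.152) and without the filter for dim probes (0.334). Without 1 wild type the log2 fold change of Cyp2b10 lay between 1.56 and 2.11, and without Rbpj -/-_2866 it was 0.92 (adjusted p = 0.208). Cyp2b13 passed in all 7 fits that left out 1 animal and Cyp2b9 in 6, with an adjusted p of 0.101 without Rbpj +/+_1024. The same filter was applied in each of these fits, so passing again adds no support. Without the filter for dim probes, neither was called (adjusted p = 0.115 for Cyp2b13 and 0.21 for Cyp2b9). Without Rbpj -/-_2866 the log2 fold changes were 2.44 for Cyp2b13 and 1.68 for Cyp2b9. With undetected values raised to the lowest detected signal of their array, they were 3.08 (adjusted p = 0.017) and 2.49 (adjusted p = 0.0361). With normexp background correction, which adds an offset and compresses dim probes, the log2 fold changes were 1.21 for Cyp2b13 (adjusted p = 0.105) and 0.75 for Cyp2b9 (adjusted p = 0.184). The other Cyp2b genes, Cyp2b19 of the skin and Cyp2b23, were above background on no array.

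**Figure D3:**
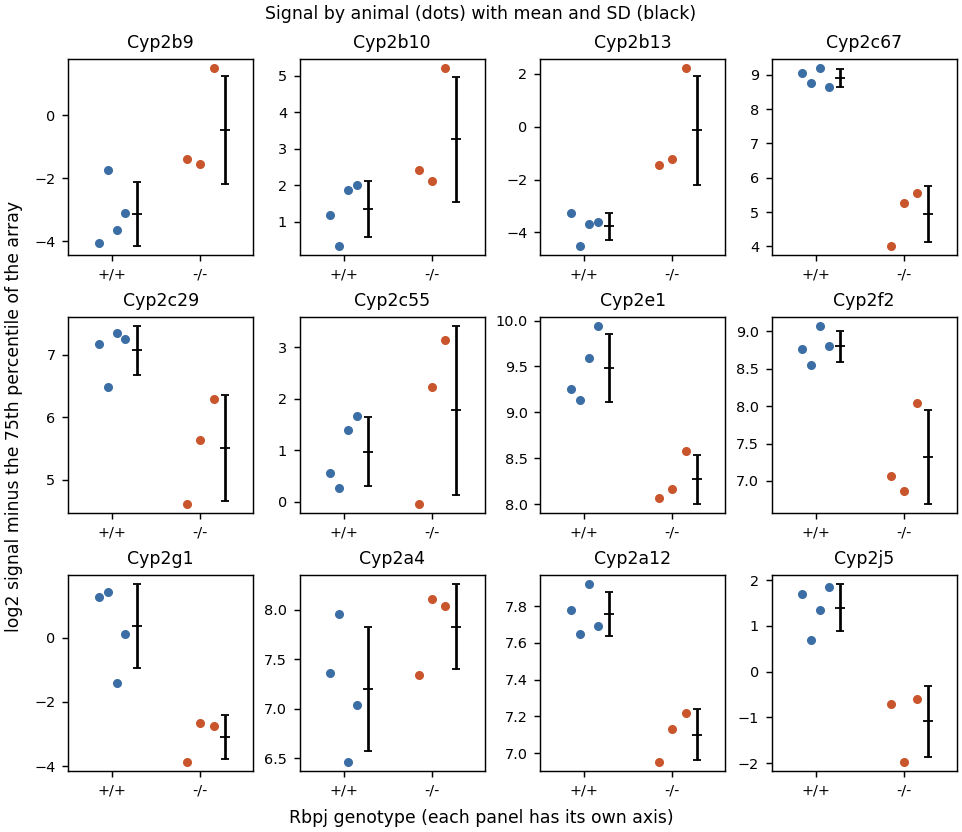
Relative log2 signal (vertical axis, separate in each panel) of 12 Cyp2 genes in 4 Rbpj +/+ (blue) and 3 Rbpj -/- (red) animals, with the mean and SD of each group in black. The groups are apart for Cyp2c67, Cyp2e1 and Cyp2f2, overlap for Cyp2c55 and Cyp2a4, and 1 knockout animal, Rbpj -/-_2866, stands above the rest in the 3 Cyp2b panels.

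All 10 Cyp2d genes on the array were tested, and all had a negative log2 fold change, with a median of -1.28. Of these 10, 7 were lower (70.0%), against 19.6% of all genes tested on the array. Cyp2d enzymes oxidise many basic drugs in man, and the mouse has a larger set of them. Cyp2d13, a transcribed pseudogene in RefSeq, read 1.99, 2.17, 2.10 and 1.69 in Rbpj +/+ and -0.43, -0.48 and 0.07 in Rbpj -/- animals. The groups were far apart, and this was the largest fall of the subfamily (log2 fold change -2.27, SE 0.22, adjusted p = 0.000547). The pseudogene Cyp2d37-ps fell by 2.0 (SE 0.29, adjusted p = 0.00302), from 4.77 to 5.47 in Rbpj +/+ down to 2.99, 2.81 and 3.86. Cyp2d11 read 9.33, 8.89, 9.46 and 9.40 in Rbpj +/+ and 7.30, 7.81 and 7.53 in Rbpj -/- animals (log2 fold change -1.72, SE 0.22, adjusted p = 0.00177). Cyp2d9, the male-specific steroid hydroxylase that depends on growth hormone pulses, read 6.21, 5.56, 5.87 and 6.35 in Rbpj +/+ and 4.2, 4.67 and 4.55 in Rbpj -/- animals. It was 2.88-fold lower without overlap (log2 fold change -1.52, SE 0.24, adjusted p = 0.00411). Cyp2d10, Cyp2d34 and Cyp2d40 had log2 fold changes of -1.21, -1.09 and -1.36, with adjusted p between 0.00529 and 0.0171.

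The Cyp2d genes not called were Cyp2d12, Cyp2d22 and Cyp2d26. Cyp2d12 just missed the threshold (log2 fold change -0.64, SE 0.25, adjusted p = 0.101). Cyp2d26 read 9.34, 9.20, 9.58 and 9.67 in Rbpj +/+ and 8.72, 9.04 and 9.30 in Rbpj -/- animals. The ranges overlapped, and the log2 fold change of -0.43 (95% interval -0.92 to 0.06) turned to 0.14 with quantile normalization. Cyp2d22, often regarded as the counterpart of human CYP2D6, had a log2 fold change of -0.26 (95% interval -0.89 to 0.36).

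Cyp2e1 and Cyp2f2 mark opposite ends of the liver lobule, and both were lower. Cyp2e1, which oxidises ethanol and small toxicants around the central vein, read 9.25, 9.13, 9.59 and 9.94 in Rbpj +/+ and 8.07, 8.17 and 8.58 in Rbpj -/- animals. No knockout reached the lowest wild type (log2 fold change -1.20, SE 0.25, adjusted p = 0.0115), and the second probe gave -1.42 (adjusted p = 0.00709). Cyp2f2, a periportal enzyme that activates naphthalene, read 8.76, 8.55, 9.07 and 8.81 in Rbpj +/+ and 7.06, 6.87 and 8.04 in Rbpj -/- animals. Rbpj -/-_2866 was nearest to the wild types and still below them (log2 fold change -1.47, SE 0.29, adjusted p = 0.00987). Among the other genes listed as pericentral, Cyp2c50 and Cyp2c54 were lower as given above, and Cyp2a5 was not analysed here.

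The Cyp2a and Cyp2g genes lie next to the Cyp2b genes on chromosome 7, and 2 of the 4 tested genes fell. The share lower among all genes tested on the array was 19.6%. Cyp2a12, which hydroxylates steroids and bile acids, read 7.78, 7.65, 7.92 and 7.69 in Rbpj +/+ and 6.95, 7.13 and 7.22 in Rbpj -/- animals. The fall was modest and without overlap (log2 fold change -0.66, SE 0.18, adjusted p = 0.0300), about the median of the hepatocyte markers. It did not pass with quantile normalization or in the series matrix (-0.34 in both), without the filter for dim probes (-0.66), or without Rbpj -/-_N3 (-0.58). Cyp2a4, a testosterone hydroxylase higher in females, read 7.36, 7.96, 6.46 and 7.04 in Rbpj +/+ and 7.34, 8.11 and 8.04 in Rbpj -/- animals. The wild types were widely spread and overlapped the knockouts (log2 fold change 0.63, SE 0.36, adjusted p = 0.230), and the unnamed probe with the like sequence gave 0.66 (adjusted p = 0.191). The second Cyp2a4 probe passed the threshold with 1.11 (SE 0.40, adjusted p = 0.0752), although its ranges also overlapped (4.84 to 6.37 against 6.07, 7.18 and 7.07). Cyp2a22 was above background on 2 of 4 wild-type and 3 of 3 knockout arrays and had a log2 fold change of 0.74 (95% interval -0.52 to 2.0).

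Cyp2g1, known from the olfactory mucosa and as a female-biased liver gene, read 1.25, 1.43, -1.42 and 0.12 in Rbpj +/+ and -3.88, -2.65 and -2.75 in Rbpj -/- animals. It was above background on 4 of 4 wild-type and 2 of 3 knockout arrays, and the wild types alone spanned almost 3 log2 units. All knockouts were lower still (log2 fold change -3.44, SE 0.65, adjusted p = 0.00824). The array places the Cyp2g1 probe at chr7:27078159-27078218 (mm9), before the Cyp2a4 probes. RefSeq has Cyp2g1 beyond Cyp2a4, with Cyp2b23 and Cyp2b19 between them. The name and the position of this probe therefore disagree, and its gene is uncertain. Of the female-biased genes measured, Cyp2b9 and Cyp2b13 were thus higher, and the probe named Cyp2g1, whose gene is uncertain, was lower. Both Cyp2a4 probes had a positive log2 fold change, of which 1 passed the threshold. The Y-linked genes given above were detected in all animals of both groups.

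**Figure D4:**
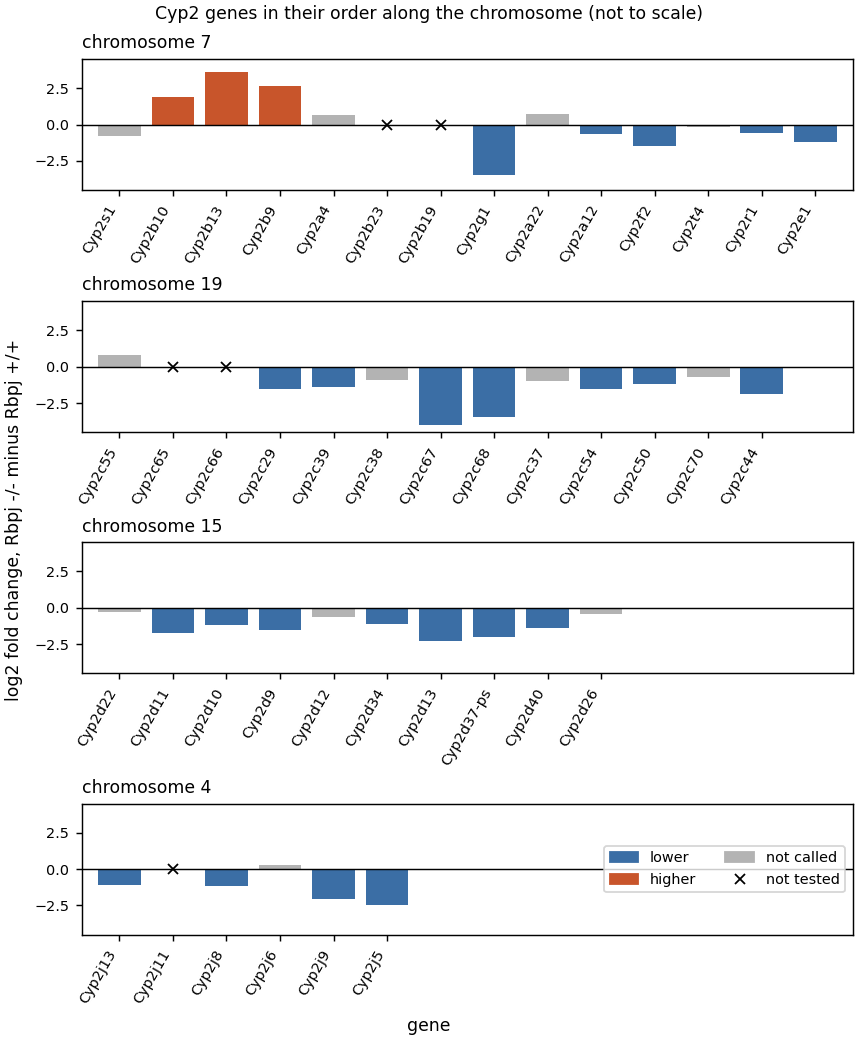
Log2 fold change (vertical axis, Rbpj -/- minus Rbpj +/+) of the Cyp2 genes in their RefSeq order along 4 chromosomes, with equal spacing. On chromosome 7 the 3 higher genes Cyp2b10, Cyp2b13 and Cyp2b9 are neighbours, and Cyp2g1, Cyp2a12 and Cyp2f2 beyond them are lower. The called genes of chromosomes 19, 15 and 4 point downwards. The probe named Cyp2g1 is drawn at the RefSeq place of that gene, although its gene is uncertain.

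Of the 6 Cyp2j genes, epoxygenases of liver, kidney, heart, gut and brain, 5 were tested and 4 fell (median -1.19). This share of 80.0% compares with 19.6% lower among all genes tested on the array. Cyp2j5, a kidney and liver epoxygenase, read 1.70, 0.70, 1.34 and 1.85 in Rbpj +/+ and -0.71, -1.98 and -0.59 in Rbpj -/- animals. Every knockout was below every wild type (log2 fold change -2.49, SE 0.39, adjusted p = 0.00404). Cyp2j9, best known from brain, read 0.97, 1.51, 1.39 and 0.93 in Rbpj +/+ and -0.67, -0.69 and -1.25 in Rbpj -/- animals (log2 fold change -2.07, SE 0.24, adjusted p = 0.00128). Here Rbpj -/-_2866 was the lowest knockout, unlike in most of the family. Cyp2j8 and Cyp2j13 fell by 1.19 and 1.07 (adjusted p = 0.0177 and 0.0175). The called Cyp2j13 probe has no chromosome position on the array. The other Cyp2j13 probes, placed on chromosome 4, and the second Cyp2j8 probe were too dim to be tested. Cyp2j6, a gut-type member, had a log2 fold change of 0.27 (95% interval -0.27 to 0.81) at its brighter probe and 1.13 (adjusted p = 0.0982) at its dimmer one. Cyp2j11 was not tested.

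The single-gene subfamilies differed among themselves. Cyp2r1, the vitamin D hydroxylase of the liver, read 3.73, 3.28, 3.59 and 3.75 in Rbpj +/+ and 2.69, 3.11 and 3.27 in Rbpj -/- animals. The groups almost touched (log2 fold change -0.57, SE 0.22, adjusted p = 0.0912), the second probe was not called (-0.34, adjusted p = 0.312), and the call was lost in 5 of the 7 fits without 1 animal. Cyp2u1, a fatty acid hydroxylase, shows how much a probe can matter. Its brightest probe contains a run of 15 TG repeats and read 7.85 to 8.76 in Rbpj +/+ and 8.61 to 8.69 in Rbpj -/- animals (log2 fold change 0.21, adjusted p = 0.558). The other probes, without such a run, were lower in the knockouts by 1.51 (SE 0.27, adjusted p = 0.00621) and 1.21 (SE 0.34, adjusted p = 0.0336) on the log2 scale. Cyp2s1, found mainly in epithelia outside the liver, varied within the groups, from -3.14 to 0.54 in Rbpj +/+ and from -3.08 to -0.10 in Rbpj -/- animals (log2 fold change -0.77, 95% interval -2.82 to 1.28). Cyp2t4 had a log2 fold change of -0.20 (95% interval -0.71 to 0.32), and Cyp2w1 was above background on no array.

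The Rbpj -/- animals differed in degree. Rbpj -/-_N3 was the lowest knockout in 28 of the 39 tested genes, including 11 of 11 Cyp2c and 8 of 10 Cyp2d genes, and Rbpj -/-_2866 was the highest in 31, including 11 of 11 Cyp2c and 3 of 3 Cyp2b genes. The median difference of the Cyp2 genes from the Rbpj +/+ mean was -1.51 in Rbpj -/-_N3, -1.17 in Rbpj -/-_N5 and -0.72 in Rbpj -/-_2866. For the Cyp2c genes it was -2.37, -1.18 and -0.69, and for the Cyp2b genes 1.76, 1.6 and 4.64, in the same order. The animal with the smallest fall of Cyp2c thus had the highest Cyp2b signals, as a description of 3 animals. The Cyp2b median is taken over 3 genes, of which Cyp2b9 and Cyp2b13 passed the filter only through the knockouts. Its size is therefore uncertain. Cyp2b10, above background in every animal, read 2.41, 2.11 and 5.21 in the knockouts, in the same order. The hepatocyte markers lay at -0.75, -0.59 and -0.54, and the median over all tested genes at -0.16, -0.08 and -0.09. Rbpj -/-_N3 was also 1 of the 2 arrays with the most probes above background, and the part of this in its values was not tested. The other such array, Rbpj +/+_1156, had the lowest wild-type median of the Cyp2 genes at -0.35, against 0.11 to 0.17 in the other wild types.

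**Figure D5:**
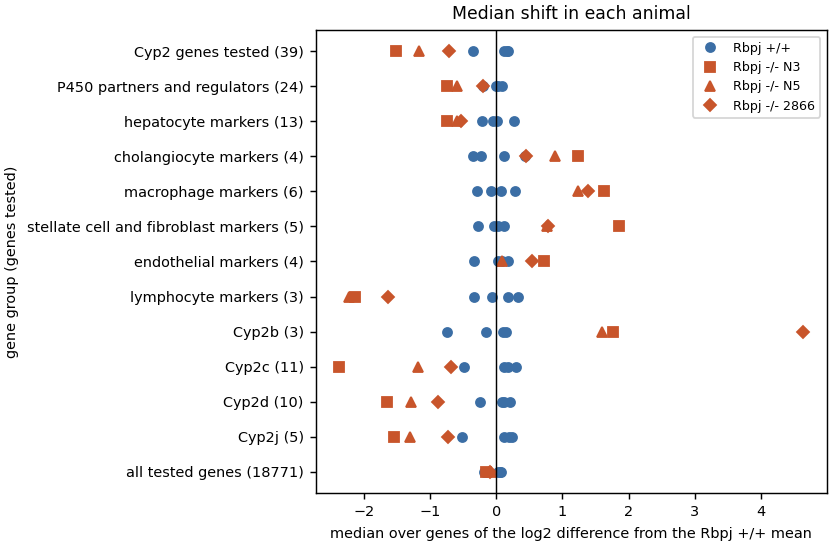
Median over the genes of each group of the log2 difference from the Rbpj +/+ mean (horizontal axis), 1 symbol per animal, with the number of tested genes in brackets. The Cyp2 genes lie between -1.51 and -0.72 in the Rbpj -/- animals, below their hepatocyte markers at -0.75 to -0.54, and the Cyp2b genes lie at 1.6 to 4.64. Of the Cyp2b genes, Cyp2b9 and Cyp2b13 passed the filter only through the knockouts.

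Markers of other liver cells moved as well. Macrophage markers were higher for 5 of 6 genes (median 1.42) and stellate cell and fibroblast markers for 4 of 5 (0.76). Cholangiocyte markers were higher for 2 of 4 tested (0.78), namely Spp1 (1.66) and Sox9 (1.32). The keratins Krt19 (0.25) and Krt7 (-0.45) were not called. Among all tested genes 14.6% were higher and 19.6% lower. In Rbpj -/- livers the per-animal medians were 1.23 to 1.62, 0.77 to 1.86 and 0.45 to 1.24 for these lists, in this order. In Rbpj +/+ livers they lay between -0.35 and 0.44. Lymphocyte markers were lower for 3 of 3 genes (-1.99), and of 4 endothelial markers 1 was lower and 1 higher. Albumin, the main secreted hepatocyte protein, differed by -0.78 on the log2 scale. The part of a changed cell composition in the Cyp2 values was not tested.

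The partners and regulators of P450 enzymes did not all move in the direction of most Cyp2 genes. Of 24 tested genes on this list, 9 were lower, 4 higher and 11 not called at the same threshold (median -0.55). The shares, 37.5% lower and 16.7% higher, compare with 19.6% and 14.6% of all tested genes. Por, the reductase that supplies the electrons, read 6.27, 6.10, 6.53 and 6.11 in Rbpj +/+ and 7.12, 7.25 and 6.80 in Rbpj -/- animals, higher in every knockout (log2 fold change 0.81, SE 0.20). Alas1, the first enzyme of haem synthesis, and Hmox1, which degrades haem, were also higher, by 1.35 (SE 0.45) and 1.39 (SE 0.23), as was the xenobiotic receptor Ahr by 0.80 (SE 0.25). Cyb5a, the electron-donating cytochrome b5, fell by 0.58 (SE 0.19). Among the receptors, the bile acid sensor Nr1h4 fell by 1.52 (SE 0.23), its target Nr0b2 by 0.92 (SE 0.29), Ppara by 1.40 (SE 0.28), the glucocorticoid receptor Nr3c1 by 0.67 (SE 0.19) and Rxra by 0.53 (SE 0.17). Nr1i3 (CAR) had a log2 fold change of -0.47 (95% interval -1.03 to 0.08) and Nr1i2 (PXR) of 0.01 (95% interval -0.78 to 0.80), and neither was called. The growth hormone receptor Ghr fell by 1.12 (SE 0.28), and Stat5b and Bcl6, which act downstream, were not called (-0.50 and -0.93). Of the liver-enriched factors, Cebpa fell by 1.01 (SE 0.39, adjusted p = 0.0877), although Rbpj -/-_2866 read 4.95, within the wild-type range of 4.63 to 5.07, and Nfia fell by 1.46 (SE 0.27), while Hnf4a (-0.32) and Foxa2 (-0.15) were not called.

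For comparison with other hepatic P450 families, 2 of 7 tested Cyp3a genes were lower (28.6%, median -0.47), and of 14 tested Cyp4 genes 9 were lower (64.3%) and 2 higher (14.3%, median -1.59), against 19.6% lower and 14.6% higher among all tested genes. These counts describe lists of different size, and no test of the difference between the families was made.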

How the data were processed

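RNA of 7 whole livers was hybridised to 1-colour arrays. The authors deposited scanner output of Agilent Feature Extraction 10.7.3.1, whose intensity values are background-subtracted spot signals without normalization between arrays. The log2 values of the deposited series matrix, made by the authors from the same arrays, served as an alternative. Control spots and spots flagged as non-uniform or population outliers were left out (146 probe values, 0 of them of Cyp2 probes), log2 intensities of the spots of a probe were averaged, and arrays were scaled to their 75th percentile. Genotypes were compared with limma 3.58.1 (R 4.3.3) over 24548 tested probes, with Benjamini-Hochberg adjustment and a threshold of 0.1. Each gene takes the values of its tested probe with the brightest mean. Intervals are 95% intervals of the fit. The number of arrays limits the precision. Since nothing beyond the animal numbers describes the replicates, p-values measure the spread between these animals. In an exact two-sided permutation test over 35 arrangements, the smallest p possible was 0.0286. Probes were called alike at 50 or more overlapping bases with at most 10 mismatches. Tables and figures were made with Python 3.11.15, pandas 2.3.3 and matplotlib 3.10.9, and the fit was tested on simulated data.

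Probe coordinates are those of the array design (mm9), and the sequences and loci of RefSeq belong to GRCm38.p6, with no conversion between them. Probe names were matched to RefSeq by accession (28759), symbol (2034) or synonym (162), and 24726 kept the array's name. The members, gene lists, tests and alternatives were chosen with earlier results of these data known. By rule, the genes named were, in each subfamily, the called genes with the largest rise and fall, the brightest tested gene, genes above background in 1 genotype only, and members listed as sex-biased, CAR-inducible, zonated, active on endogenous substrates or mainly extrahepatic. Other members were added after their values were seen. No probe named Cyp2a5, Cyp2c40 or Cyp2c69 was used here. The result for 1 gene of the regulator list is not reported here. The alternatives were normexp (offset 50), quantile normalization, the percentile over detected probes, no dim filter, detection on all 7 arrays, the mean of all probes, genes with distinct probes, the series matrix, limma-trend, a threshold of 0.05 and each animal left out. Leaving out the 2 arrays with the most probes above background, and raising undetected values to the lowest detected signal of their array, were added after seeing the data.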

Additional observations from a re-analysis of the deposited data

Results flagged for a closer look

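Among the 26 genes named by rule, 1 animal stood apart in the Rbpj +/+ group of 4. Cyp2c70 read 7.62 in Rbpj +/+_1156, while the other wild types read 8.54, 8.70 and 8.70, and the gap to the nearest animal was 0.846 of the range of the group. By chance about 1 in 20 groups would show such a gap. Without this animal Cyp2c70 passed the limma threshold with a log2 fold change of -0.97 (it was -0.71 with it). Rbpj +/+_1156 was also 1 of the 2 arrays with the most probes above background, whose part in this value was not tested.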

How the results depend on the processing

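The number of lower Cyp2 genes (23) ranged from 20 to 26 when 1 animal was left out and from 21 to 25 under the other alternatives, except without the filter for dim probes, where 13 of 45 genes passed in a fit of 55681 probes (22 at an unadjusted p below 0.05). The number of higher genes (3) was 0 without that filter in limma (3 at an unadjusted p below 0.05) and 1 when detection on all 7 arrays was required, which removes Cyp2b9 and Cyp2b13 from the test. It ranged from 1 to 4 when 1 animal was left out, with 1 without Rbpj +/+_1024. The median log2 fold change lay between -1.36 and -0.83. Of 464 values of single genes under the alternatives, 404 kept their direction and their side of the threshold, 41 lost the call, 15 gained one and 4 reversed. The reversed values of Cyp2d26 were those with quantile normalization (0.14) and in the series matrix (0.15). Those of Cyp2u1 were the mean of its probes (-0.84) and the value without the 2 arrays with the most probes above background (-0.01). Quantile normalization and the series matrix gave nearly the same values (Cyp2b13 3.52 in both, Cyp2c67 -3.7 and -3.69), so they are not separate checks. None of the reversed genes was called in the fit reported, and the cause was not tested, apart from the differing Cyp2u1 probes. Quantile normalization moved the median of all tested genes to -0.04 and normexp to -0.07. No paired analysis was possible because the animal numbers are not shared between the genotypes. Dim probes such as those of Cyp2b9, Cyp2b13 and Cyp2g1 were near background in 1 genotype, so their fold changes are less certain in size.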
